A study of Mus musculus with 100 samples.

Results

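The pair of libraries with low Med14 came from mouse embryonic stem cells in which a Mediator subunit had been targeted by RNA interference. They are 2 of the 100 mRNA libraries of the series, and they were chosen on a measured value. Of the 4 libraries titled for a Med1 or a Med14 hairpin, these 2 had the lower Med14 level. One is titled shMed14 replicate 1 and the other shMed1 replicate 2, so the replicate 2 titles of the 2 hairpins appear to have been exchanged. They are called the Med14-low libraries here, and the remaining pair (titled shMed1 replicate 1 and shMed14 replicate 2) the Med1-low libraries. Both pairs were set against the 2 libraries of the shControl group that is titled for Med1 and Med14 (control_C).

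The series covers 47 knockdowns and 3 control groups with 2 libraries each, and asks which subunits of TFIID and Mediator matter most for transcription in these cells. The cells were V6.5, a line grown on mouse embryonic fibroblast feeders in medium with 15% serum and 1000 U/ml of the cytokine LIF, which keeps stem cells undifferentiated. For the knockdown, cells depleted of feeders received 1.8 µg of a hairpin plasmid by lipofection. Puromycin at 1 µg/ml was added 24 h later, and selection lasted 72 h. Med14-low, Med1-low and control_C cells shared this treatment and differed in the hairpin, as far as the labels say. Nothing in the labels says that a group's replicates were separate cultures. The p-values therefore measure only the spread between libraries of the same group, which the main fit pooled over all 100 libraries. In bulk RNA, fewer cells with a transcript and less of it per cell cannot be told apart.

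Mediator is the coactivator that carries signals from transcription factors at enhancers to RNA polymerase II at promoters. Its subunits form head, middle and tail modules and a detachable kinase module. MED14 is the long backbone protein that holds the head, middle and tail together, whereas MED1 sits in the middle module and contacts nuclear receptors. In embryonic stem cells Mediator occupies the enhancers of the genes that maintain pluripotency.

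The level of the target, which chose the libraries, is a description and was not tested. Med14 had 4.57 and 4.98 RPKM (reads per kilobase of transcript, scaled to the depth of the library) in the Med14-low libraries, against 6.94 and 7.38 RPKM in the Med1-low libraries and 7.14 and 7.74 RPKM in control_C. The Med14-low values were 61.5% and 67.0% of the control mean of 7.44 ± 0.42 RPKM (SD, n = 2), and they were the 2 lowest of all 100 libraries. The other 94 libraries ranged between 7.55 and 16.1 RPKM. Just outside the choice stood shMed1 replicate 1, at 93.3% of the control mean. A second annotated Med14 transcript had 4.54 and 5.03 RPKM in the Med14-low libraries and 7.26 and 7.98 RPKM in control_C. Med1 went the other way through the same 4 libraries. It had 10.7 and 11.2 RPKM in the Med14-low libraries, 7.54 and 7.44 RPKM in the Med1-low libraries and 11.0 and 11.9 RPKM in control_C. Each library of the 4 was thus low for 1 of the 2 targets, and in both replicate 2 libraries that target was not the one in the title.

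**Figure D1:**
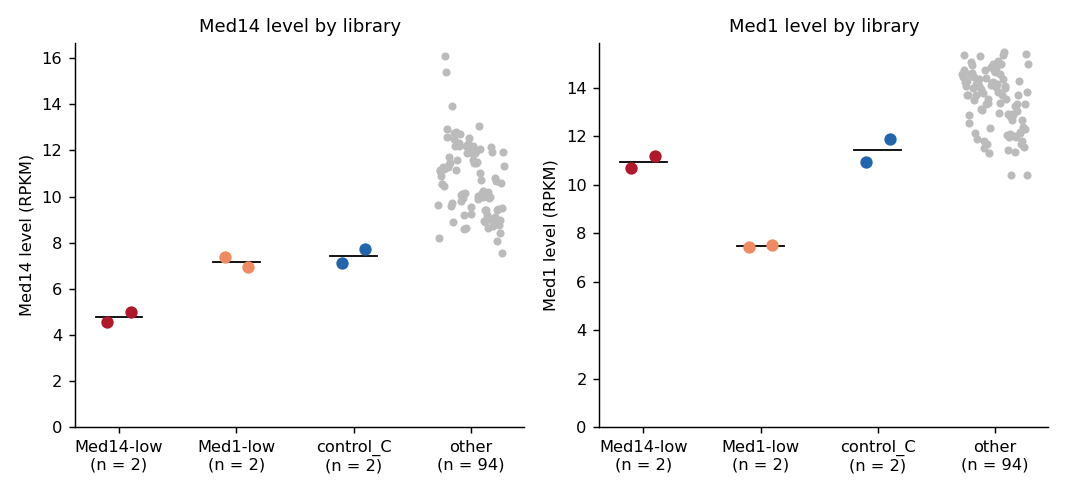
Levels of Med14 (left) and Med1 (right) in RPKM, with a point per library and a bar at the mean of each group of 2. The Med14-low libraries lie at 4.57 and 4.98 RPKM for Med14, below the 98 other libraries, while for Med1 the 2 Med1-low libraries are the lowest.

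The remaining genes paired the libraries in the same way. With Med14 and Med1 left out, the SD of the log2(RPKM + 1) difference over genes was 0.181 within the Med14-low pair, 0.171 within the Med1-low pair and 0.184 between the controls. Paired as titled, the SD was 0.363 for shMed14 and 0.387 for shMed1. The Med14-low libraries were 0.357 to 0.398 from the controls, and the Med1-low libraries 0.142 to 0.189. Among all other libraries of the series, the nearest to each Med14-low library was the other one (Pearson r = 0.995 across genes). In a principal component analysis of the 6 libraries the first component, with 72.3% of the variance, put the Med14-low libraries at 25.7 and 27.7 and the other 4 between -13.9 and -12.6. The second component held 13.8% and separated replicates 1 from replicates 2.

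Depth, as the denominator behind the RPKM values, was 29.7 and 23.2 M reads in the Med14-low libraries, 30.3 and 24.0 M in the Med1-low libraries and 27.6 and 20.3 M in control_C. The whole series ranged between 17.3 and 39.3 M. At these depths 1 read on a transcript of 1 kb equals 0.0330 to 0.0493 RPKM in the 6 libraries. The summed levels of 5 embryonic stem cell markers were 729 and 625 RPKM in the Med14-low libraries and 937 and 855 RPKM in control_C. The 12 markers of fibroblast feeders summed to 9.03 and 7.88 RPKM in the Med14-low libraries and 6.60 and 5.71 RPKM in control_C. Of these 12, 8 were under 1 RPKM in all 6 libraries, and Lum was at 0 in all 6. Of the 6 that passed the filter, 2 rose and 4 were not called in the comparison with control_C described next, in which 23.5% of all genes were called. Col5a2, a fibrillar collagen, had 0.571 and 0.450 RPKM in the Med14-low libraries and 0.0822 and 0.0448 RPKM in control_C (log2 change 0.50 ± 0.15, adjusted p = 0.0124 in limma). Fbn1, the microfibril protein fibrillin, had 0.987 and 1.00 RPKM against 0.352 and 0.464 RPKM (0.50 ± 0.16, adjusted p = 0.0136). Col1a1 had 1.69 and 1.61 RPKM against 0.594 and 0.410 RPKM and was not called (adjusted p = 0.0655). The Col5a2 and Fbn1 calls were each lost without shMed14 replicate 1 and without control_C replicate 1, that of Col5a2 also without control_C replicate 2 and that of Fbn1 also without shMed1 replicate 2. The part of feeder cells in the results was not tested.

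Against control_C, 3052 of 12973 genes tested without Med14 (23.5%) were called at an adjusted p under 0.05 in a limma-trend fit over all 100 libraries. Of these, 2080 were higher (16%) and 972 lower (7.49%) in the Med14-low libraries. The rises were also larger. A log2 change of 1 or more was reached by 232 of the genes that rose and, in the other direction, by 20 that fell. Both Med14-low libraries lay on the same side of both controls for 3050 of the 3052 called genes, beside 37.9% of all genes above and 26.6% below both controls. With the libraries grouped as titled, no gene was called, and 1184 genes had an unadjusted p under 0.05. Without shMed1 replicate 2 the count was 1709 (1343 higher and 366 lower), and without control_C replicate 1 it was 1866 (1462 higher and 404 lower). It was 1958 without control_C replicate 2 (1310 higher and 648 lower) and 2068 without shMed14 replicate 1 (1375 higher and 693 lower). Without shMed1 replicate 2 the share of called genes that were higher was 78.6%, against 68.2% with all libraries. Fitted on the 6 libraries alone it was 3678, of which 2719 were among the 3052.

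**Figure D2:**
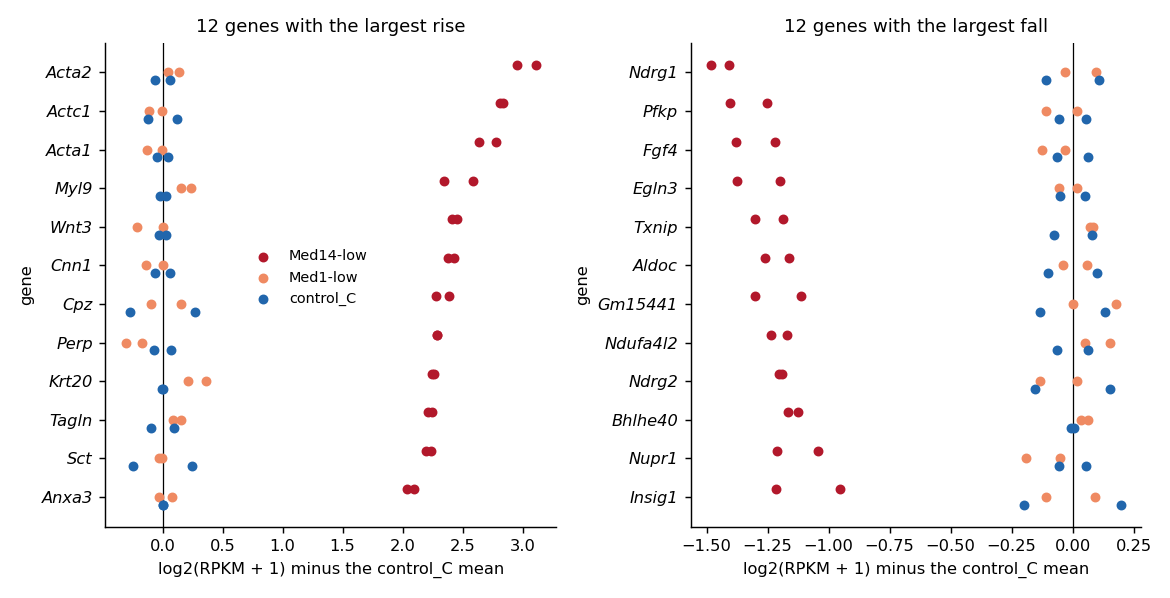
Level of the 12 genes with the largest rise (left) and the 12 with the largest fall (right) as log2(RPKM + 1) minus the control_C mean, with a point per library. The 24 genes were chosen among called genes in which the Med14-low libraries did not overlap control_C, and values are centred on control_C. Separation from control_C was thus fixed by the choice. The Med1-low libraries, which the choice did not use, also sit around 0 and apart from the Med14-low libraries.

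Changes of the other Mediator subunits were small, and their number depended on the fit. Of 32 tested in the 4 modules besides Med14, 2 rose and 1 fell, beside 16% of all genes called higher and 7.49% lower. Med6, of the head, had 25.6 and 26.8 RPKM in the Med14-low libraries and 20.1 and 22.9 RPKM in control_C, a log2 change of 0.28 ± 0.09 (SE, adjusted p = 0.0169). Med7, of the middle module, changed by 0.32 ± 0.09 (adjusted p = 0.00708), with 14.3 and 13.7 RPKM against 10.9 and 11.2 RPKM in control_C. Cdk19, which encodes a kinase of the detachable module, had 2.84 and 2.63 RPKM against 3.93 and 3.23 RPKM in control_C (log2 change -0.29 ± 0.08, adjusted p = 0.00808). These 3 changes were small. The groups did not overlap, beside 37.9% of all genes above and 26.6% below both controls. All 3 calls were lost without control_C replicate 1, those of Med6 and Cdk19 also without shMed1 replicate 2, and that of Med7 also without shMed14 replicate 1. The largest adjusted p was then 0.255 for Med6, 0.0722 for Med7 and 0.249 for Cdk19, and the Cdk19 call was also lost with the 6 libraries alone (adjusted p = 0.0641). With the 6 libraries alone and the replicate block, 10 of the 32 were higher and 2 lower. In that fit 3608 of 12955 genes were higher and 2574 lower. Against control_B, the control group of 23 other Mediator knockdowns, 7 were higher and 8 lower. There 2793 of all 12973 genes tested were higher and 2172 lower, which is the background of all list counts against control_B. Med1 (adjusted p = 0.717) and Med4 (adjusted p = 0.119) were not called. Of 16 TFIID subunits none was called, while in a fit of the 6 libraries alone 2 were higher and 4 lower. In that fit 2356 of 12955 genes were higher and 1322 lower. Of 12 subunits of RNA polymerase II, Polr2a and Polr2l rose, beside 16% of all genes that were called higher. Polr2a, which encodes the largest subunit, had 67.3 and 74.5 RPKM in the Med14-low libraries, above the 42.2 and 47.5 RPKM of control_C (log2 change 0.65 ± 0.15, adjusted p = 0.000896). In control_B it had 74.3 and 77.6 RPKM, and neither Polr2a nor Polr2l was called against that group (adjusted p = 0.637 and 0.688).

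Several of the genes that rose most encode the contractile cytoskeleton. Many of them are textbook targets of serum response factor (SRF), which binds the CArG box and works with actin-sensing cofactors. Of 15 tested members of a list of contractile genes and SRF targets, 14 rose and none fell, beside 16% of all genes called higher. Their median log2 change was 1.73, beside 0.04 over all genes tested. The count was 14 without each library in turn, and 12 against control_B. Acta2, the smooth muscle actin, had 43.9 and 49.1 RPKM in the Med14-low libraries, 4.98 and 5.39 RPKM in the Med1-low libraries and 5.06 and 4.57 RPKM in control_C. Both Med14-low libraries stood far above the other 4, and the log2 change against control_C was 3.03 ± 0.51 (SE, adjusted p = 6.53e-06). Actc1, the cardiac actin, was near the lower end of detection outside the Med14-low pair. It had 9.82 and 9.61 RPKM in the Med14-low libraries and 0.652 and 0.391 RPKM in control_C (log2 change 2.82 ± 0.36, adjusted p = 2.2e-08). Acta1, the skeletal muscle actin, had 63.2 and 69.6 RPKM against 9.62 and 8.997 RPKM in control_C (2.71 ± 0.39, adjusted p = 4.08e-07). The actin transcripts share long stretches of sequence. The sources used here do not say how reads common to them were counted, so the split between the 3 actins is uncertain.

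Genes for proteins that bind or regulate actin and myosin followed the actins. Myl9, a regulatory myosin light chain, had 66.4 and 78.7 RPKM in the Med14-low libraries and 12.5 and 12.0 RPKM in control_C (log2 change 2.47 ± 0.35, adjusted p = 1.71e-07). Cnn1, or calponin, an inhibitor of myosin on actin filaments, had 24.3 and 25.3 RPKM against 4.09 and 3.68 RPKM in control_C (2.40 ± 0.33, adjusted p = 1.09e-07). Tagln, the actin-bundling transgelin, had 118 and 121 RPKM against 26.6 and 23.1 RPKM in control_C (2.23 ± 0.35, adjusted p = 1.88e-06). In all of them the Med14-low libraries lay above every control value, which was a condition of their choice, and the Med1-low libraries were close to the controls. The tropomyosins Tpm1 and Tpm2 rose by log2 changes of 1.44 and 1.73. The adhesion protein vinculin (Vcl) and filamin A (Flna), which anchor and crosslink actin, rose less, by 0.79 and 0.88. Srf itself had 19.1 and 15.6 RPKM in the Med14-low libraries and 11.5 and 10.6 RPKM in control_C (0.60 ± 0.12, adjusted p = 0.000192). The uncalled member was Actg2, with at most 0.524 RPKM in any library of the set. Mylk was not tested because its level was too low.

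The CArG box was looked for in the 250 bases before the start of each gene, in RefSeq sequences of build GRCm38.p6 and on both strands. It was found in 1.62% of all genes with such a window and in 6 of the 13 contractile genes with one, which were Acta1, Actc1, Myl9, Cnn2, Vcl and Srf. A match is a description and not a site. Acta2 and Cnn1 held none in this window. The windows of 3 of the 12 genes with the largest rise are shown because they hold a match, in capitals, at 47 bases (Actc1), 73 bases (Acta1) and 161 bases (Myl9) before the start. They lie at chr2:114052876-114053125 on the minus strand, chr8:123894776-123895025 on the minus strand and chr2:156775214-156775463 on the plus strand.
Actc1: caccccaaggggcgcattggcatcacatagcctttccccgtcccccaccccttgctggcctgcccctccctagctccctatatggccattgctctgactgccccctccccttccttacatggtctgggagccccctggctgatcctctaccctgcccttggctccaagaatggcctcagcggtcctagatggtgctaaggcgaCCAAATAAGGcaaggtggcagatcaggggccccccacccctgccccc
Acta1: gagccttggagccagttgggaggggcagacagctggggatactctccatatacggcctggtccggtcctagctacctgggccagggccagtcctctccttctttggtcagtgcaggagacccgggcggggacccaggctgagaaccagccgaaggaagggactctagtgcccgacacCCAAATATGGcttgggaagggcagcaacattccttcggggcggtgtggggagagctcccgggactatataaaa
Myl9: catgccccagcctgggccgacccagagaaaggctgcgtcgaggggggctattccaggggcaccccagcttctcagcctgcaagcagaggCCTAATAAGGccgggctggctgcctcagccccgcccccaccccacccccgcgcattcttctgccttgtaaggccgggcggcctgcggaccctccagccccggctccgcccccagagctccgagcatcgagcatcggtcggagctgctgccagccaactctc

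Targets of YAP and TEAD, the transcription factors that respond to tension and cell contact, also rose: 6 of 8 tested, none fell, with a median log2 change of 0.81. Of all genes 16% were called higher. Axl, a receptor tyrosine kinase, had 5.08 and 5.25 RPKM in the Med14-low libraries and 1.08 and 1.01 RPKM in control_C (log2 change 1.59 ± 0.24, adjusted p = 9.16e-07). Lats2, a kinase that restrains YAP, had 3.30 and 4.01 RPKM against 0.873 and 0.903 RPKM in control_C (1.30 ± 0.23, adjusted p = 1.33e-05). Ccn1, a secreted matrix protein, rose by 1.22 ± 0.30 (adjusted p = 0.00189), whereas its relative Ccn2 was not called. The groups did not overlap in Axl, Lats2 or Ccn1, and the count was 6 without each library in turn. Of all genes 37.9% lay above both control_C libraries. Against control_B, 3 of the 8 were called higher and 2 lower, beside 2793 higher and 2172 lower of all 12973 genes. In control_A Ccn1 had 116 and 124 RPKM, above the 55.0 and 53.8 RPKM of the Med14-low libraries. Axl had 2.36 and 2.32 RPKM there, below them, and Lats2 4.18 and 3.34 RPKM, overlapping them. Among basement membrane and matrix genes 2 of 10 rose, beside 16% of all genes that were called higher. They were Lama5, a laminin chain (0.62 ± 0.12, adjusted p = 0.000144), and Hspg2, the proteoglycan perlecan (0.60 ± 0.18, adjusted p = 0.00961). The Hspg2 call was lost without shMed1 replicate 2 and without control_C replicate 1, with adjusted p up to 0.135. In control_B Lama5 had 34.3 and 33.3 RPKM and Hspg2 70.2 and 72.1 RPKM. Neither was called against control_B (adjusted p = 0.715 and 0.288), where 2 of the 10 were called higher and none lower.

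Simple keratins and regulators of the trophectoderm, the outer cells of the blastocyst, were higher. Of 11 tested members of that list, 7 rose and 1 fell, beside 16% of all genes called higher and 7.49% lower. The median log2 change of the list was 0.95. Krt8 had 55.8 and 55.3 RPKM in the Med14-low libraries, 24.7 and 20.6 RPKM in the Med1-low libraries and 25.3 and 23.3 RPKM in control_C (log2 change 1.16 ± 0.28, adjusted p = 0.0016). Its filament partner Krt18 had 80.3 and 83.6 RPKM against 33.5 and 31.3 RPKM in control_C (1.31 ± 0.30, adjusted p = 0.000706). The Med14-low libraries were thus about the same as each other and higher than all 4 others. Hand1, a transcription factor of the trophoblast, had 1.55 and 1.86 RPKM against 0.363 and 0.442 RPKM in control_C (0.95 ± 0.20, adjusted p = 0.000272). Gata3, which specifies trophectoderm, had 2.18 and 2.21 RPKM against 0.305 and 0.414 RPKM in control_C (adjusted p = 0.0488), a call lost without each of the 4 libraries in turn (adjusted p up to 0.181). Eomes, a trophoblast and mesendoderm factor, was the member that fell (log2 change -0.37, adjusted p = 0.0368), and it was also lost without each library. Cdx2, the defining factor of the lineage, had 0.361 and 0.402 RPKM in the Med14-low libraries and 0.321 and 0.276 RPKM in control_C, and Elf5 was at 0 in both Med14-low libraries. Summed over 7 trophectoderm markers the level was 147 and 149 RPKM in the Med14-low libraries and 61.8 and 57.8 RPKM in control_C, most of it from Krt8 and Krt18. Against control_B, 1 of the 11 list members was called higher and 1 lower, beside 2793 higher and 2172 lower of all 12973 genes. Of the 11 members, 7 were lower in both control_C libraries than in both control_B libraries. Krt18 had 66.9 and 66.5 RPKM in control_B and was not called against it (adjusted p = 0.458). In control_A, the shControl group titled for TFIID and some Mediator subunits, Krt18 had 277 and 242 RPKM, above both Med14-low libraries. The keratins Krt7 and Krt19 were also above them in control_A, and Gata3 was below. Krt20, a keratin of intestinal epithelium, was among the 12 largest rises, with 5.33 and 5.38 RPKM against 0.338 and 0.332 RPKM in control_C (2.25 ± 0.33, adjusted p = 3.69e-07). The calcium-dependent membrane protein Anxa3 had 43.1 and 41.5 RPKM against 9.33 and 9.33 RPKM (2.07 ± 0.25, adjusted p = 6.88e-09), and Sct, the hormone secretin, 8.85 and 8.57 RPKM against 1.47 and 0.762 RPKM (2.22 ± 0.30, adjusted p = 5.9e-08).

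Wnt signalling genes were among the larger rises. Wnt3, the ligand that starts gastrulation in the mouse embryo, had 6.34 and 6.57 RPKM in the Med14-low libraries, 0.382 and 0.188 RPKM in the Med1-low libraries and 0.349 and 0.412 RPKM in control_C. Its log2 change was 2.43 ± 0.23 (adjusted p = 6.24e-12). Wls, which carries Wnt proteins to the cell surface, had 10.1 and 10.8 RPKM against 2.28 and 1.95 RPKM in control_C (1.88 ± 0.32, adjusted p = 7.86e-06). Neither gene overlapped between groups, which was a condition of the choice of Wnt3, and 37.9% of all genes lay above both controls. Of 10 Wnt targets 5 rose and none fell, beside 16% of all genes called higher. Among the 5 were Sp5, a transcription factor induced by Wnt (1.41 ± 0.33, adjusted p = 0.000902), and Axin2, a feedback inhibitor (0.66 ± 0.13, adjusted p = 6.72e-05). Against control_B, 2 of the 10 were called higher and 2 lower, beside 2793 higher and 2172 lower of all 12973 genes. Of the 10 targets, 9 were lower in both control_C libraries than in both control_B libraries. Brachyury (T), a mesoderm factor, had 1.29 and 1.85 RPKM against 0.301 and 0.314 RPKM in control_C (0.97 ± 0.21, adjusted p = 0.000489). Lef1 was not called, with 2.92 and 3.14 RPKM against 4.25 and 5.29 RPKM. Cpz, a secreted carboxypeptidase that binds Wnt, had 7.29 and 6.70 RPKM against 0.317 and 0.908 RPKM in control_C (2.33 ± 0.19, adjusted p = 2.78e-14). Id3, an inhibitor of differentiation downstream of BMP, had 22.0 and 17.2 RPKM against 4.98 and 4.92 RPKM in control_C (1.78 ± 0.28, adjusted p = 2.63e-06), but control_B had 30.6 and 26.1 RPKM. The other 8 tested genes of the BMP list, Id1 and Id2 included, were not called.

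**Figure D3:**
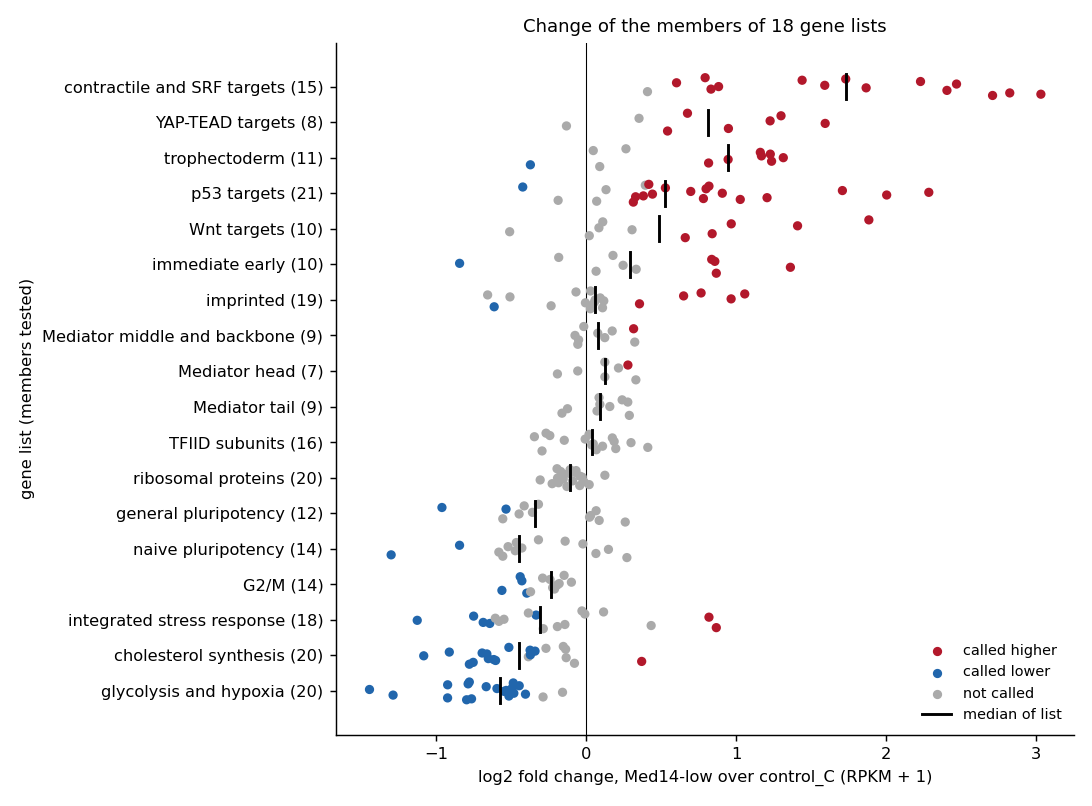
Log2 fold change of the Med14-low libraries over control_C for each tested member of 18 gene lists, with 1 point per gene coloured by its call and a bar at the list's median. Contractile genes lie to the right of 0, with 14 of 15 called higher, and glycolysis and hypoxia genes to the left, with 18 of 20 called lower.

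Targets of p53, the transcription factor of the damage response, were mostly higher. Of 21 tested, 16 rose and 1 fell, with a median log2 change of 0.53, beside 16% of all genes called higher and 7.49% lower. Perp, a desmosomal protein, had 73.1 and 73.1 RPKM in the Med14-low libraries, 12.5 and 11.3 RPKM in the Med1-low libraries and 15.0 and 13.5 RPKM in control_C (2.28 ± 0.20, adjusted p = 4.88e-13). Fas, a death receptor, had 4.06 and 3.60 RPKM against 0.244 and 0.166 RPKM in control_C (2.00 ± 0.17, adjusted p = 9.33e-14). Plk2, a kinase of the centriole cycle, had 41.6 and 44.0 RPKM against 12.1 and 12.8 RPKM (1.71 ± 0.21, adjusted p = 9.42e-09). In all of these the Med14-low libraries were well above the other 4 libraries of the set. For Perp control_B had 39.2 and 41.3 RPKM, and the change against it was 0.85 ± 0.20 (adjusted p = 0.000604). For Plk2 control_B had 31.7 and 32.2 RPKM, and the difference from it was not called (adjusted p = 0.122). Cdkn1a, the cell cycle inhibitor p21, had 62.9 and 60.7 RPKM against 28.1 and 24.5 RPKM in control_C (1.20 ± 0.26, adjusted p = 0.000316). Mdm2, the ubiquitin ligase that degrades p53, had 74.9 and 74.5 RPKM against 40.1 and 38.7 RPKM (0.91 ± 0.21, adjusted p = 0.00108). The pro-apoptotic genes were split, since Pmaip1 rose (0.80 ± 0.18, adjusted p = 0.000588) while Bax and Bbc3 were not called, and Sesn1 was the member that fell. Against control_B, 5 of the 21 were called higher and 4 lower, beside 2793 higher and 2172 lower of all 12973 genes. Of the 21 members, 15 were lower in both control_C libraries than in both control_B libraries.

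The pluripotency genes were lower on balance, but few passed the test. Of 12 general pluripotency genes 2 fell and none rose (median log2 change -0.34), and of 14 naive pluripotency genes 2 fell and none rose (median -0.45). Of all genes 7.49% were called lower. Pou5f1, which encodes the factor OCT4, had 329 and 272 RPKM in the Med14-low libraries and 417 and 354 RPKM in control_C, and was not called (adjusted p = 0.292). Nanog had 104 and 97.1 RPKM in the Med14-low libraries and 138 and 137 RPKM in control_C (adjusted p = 0.186). Both Med14-low libraries lay below both controls in either gene, as they did in 26.6% of all genes. Sox2, the partner of OCT4, had 91.8 and 79.5 RPKM against 131 and 118 RPKM in control_C (log2 change -0.54 ± 0.17, adjusted p = 0.0192), and Tdgf1, a Nodal co-receptor, had 278 and 251 RPKM against 524 and 506 RPKM in control_C (log2 change -0.96 ± 0.29, adjusted p = 0.01). Fgf4, the growth factor that pushes stem cells out of the naive state, had 31.0 and 27.7 RPKM in the Med14-low libraries, 72.2 and 67.5 RPKM in the Med1-low libraries and 77.0 and 70.5 RPKM in control_C (-1.30 ± 0.37, adjusted p = 0.00696). Prdm14, a repressor of differentiation in the naive state, had 3.19 and 2.86 RPKM against 6.31 and 6.13 RPKM (-0.84 ± 0.19, adjusted p = 0.000708). The calls of Sox2, Tdgf1 and Fgf4 were each lost without shMed1 replicate 2 and without control_C replicate 1, with adjusted p up to 0.185 for Sox2, 0.0861 for Tdgf1 and 0.0652 for Fgf4. With the spread taken from the 6 libraries alone, 6 general pluripotency genes fell and 1 rose, and 9 naive genes fell and 1 rose. In that fit 1322 of 12955 genes were lower and 2356 higher. Nanog was then called (adjusted p = 0.00364) and Pou5f1 was not (adjusted p = 0.0915). With the replicate number as a block, 4 naive genes fell. Against control_B, 1 general pluripotency gene was called higher and 4 lower, and 4 naive genes higher and 6 lower. Of all 12973 genes 2793 were higher and 2172 lower in that comparison. Fgf4 had 30.4 and 31.0 RPKM and Tdgf1 273 and 278 RPKM in control_B, and neither was called against it (adjusted p = 0.912 and 0.885), while Sox2 was (log2 change -0.46, adjusted p = 0.031). Prdm14 had 1.03 and 1.20 RPKM in control_B and was called higher against it (log2 change 0.93, adjusted p = 0.000105). The change of Nanog also turned positive there.

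Many of the genes that fell most serve glucose use and the response to low oxygen. Glycolysis converts glucose to pyruvate, and the hypoxia-inducible factor HIF raises many of its enzymes. Of 20 members of the glycolysis and hypoxia list 18 fell and none rose (median log2 change -0.57), beside 7.49% of all genes called lower. Without control_C replicate 1 the count was 11, and without shMed1 replicate 2 it was 12. Ndrg1, a hypoxia-induced gene, had 4.22 and 3.97 RPKM in the Med14-low libraries, 13.8 and 12.6 RPKM in the Med1-low libraries and 13.9 and 11.9 RPKM in control_C (log2 change -1.44 ± 0.18, adjusted p = 1.17e-08). Egln3, a HIF-induced prolyl hydroxylase that marks HIF for destruction, had 18.8 and 16.5 RPKM against 46.1 and 42.8 RPKM in control_C (-1.29 ± 0.12, adjusted p = 1.14e-11). Bnip3, a receptor for the removal of mitochondria, had 43.5 and 40.6 RPKM against 85.1 and 76.5 RPKM (-0.92 ± 0.10, adjusted p = 5.43e-11). Both Med14-low libraries were below both controls in each of these genes, which for Ndrg1 and Egln3 was a condition of their choice. The glucose transporter Slc2a1 had 162 and 142 RPKM against 286 and 292 RPKM in control_C (-0.92 ± 0.15, adjusted p = 4.87e-06). Pfkp, a phosphofructokinase outside the list, had 13.7 and 12.2 RPKM against 35.4 and 32.6 RPKM in control_C (-1.33 ± 0.16, adjusted p = 3.63e-09). Of the late enzymes, Pgk1, which makes ATP, had a log2 change of -0.67 ± 0.12 (adjusted p = 1.88e-05) and Ldha, which turns pyruvate into lactate, -0.53 ± 0.13 (adjusted p = 0.00175).

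The control libraries themselves differed in these genes between the sets. All 20 tested members of the glycolysis and hypoxia list were higher in both control_C libraries than in both control_B libraries, with a median log2 difference of 1.10. Ndrg1 had 1.93 and 1.40 RPKM in control_B, Egln3 3.13 and 3.37 RPKM, and Bnip3 10.3 and 11.3 RPKM. The Med14-low libraries thus lay between the 2 control groups for these 3 genes. Against control_B, 15 of the 20 were called higher and 1 lower, and Egln3 had a log2 change of 2.13 ± 0.12 (adjusted p = 5.13e-20) there. The fall therefore holds against the controls of the same set and not against those of the other set. For Slc2a1, control_B had 274 and 257 RPKM, and the change against it was -0.80 ± 0.15 (adjusted p = 2.74e-05).

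The core of the HIF response element, ACGTG, was looked for on both strands of the same 250-base windows. It was found in 18.5% of all genes with a window, in 25.5% of the tested genes and in 12 of the 18 glycolysis and hypoxia genes with one. The windows of Egln3, Bnip3 and Slc2a1 are shown because these genes carried the fall and hold a match, in capitals, at 229, 108 and 36 bases before the start. In Bnip3 the match on one strand overlaps that on the other. The windows lie at chr12:54203875-54204124 on the minus strand, chr7:138909507-138909756 on the minus strand and chr4:119108495-119108744 on the plus strand.
Egln3: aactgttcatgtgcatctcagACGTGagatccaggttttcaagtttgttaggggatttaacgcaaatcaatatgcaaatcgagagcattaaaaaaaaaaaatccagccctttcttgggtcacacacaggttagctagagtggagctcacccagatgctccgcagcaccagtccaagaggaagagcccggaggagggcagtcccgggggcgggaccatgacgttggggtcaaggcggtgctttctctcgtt
Bnip3: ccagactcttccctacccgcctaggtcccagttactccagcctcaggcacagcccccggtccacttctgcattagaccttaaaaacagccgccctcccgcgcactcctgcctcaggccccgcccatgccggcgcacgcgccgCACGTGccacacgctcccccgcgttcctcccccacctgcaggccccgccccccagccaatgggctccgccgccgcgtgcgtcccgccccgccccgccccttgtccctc
Slc2a1: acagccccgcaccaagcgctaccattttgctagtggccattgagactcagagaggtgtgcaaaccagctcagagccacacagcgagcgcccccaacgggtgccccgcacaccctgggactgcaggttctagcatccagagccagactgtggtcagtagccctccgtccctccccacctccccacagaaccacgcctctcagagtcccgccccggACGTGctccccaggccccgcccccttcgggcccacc

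The other genes among the 12 largest falls had varied roles. Txnip, which curbs glucose uptake, had 101 and 93.0 RPKM in the Med14-low libraries, 245 and 242 RPKM in the Med1-low libraries and 244 and 219 RPKM in control_C (log2 change -1.25 ± 0.18, adjusted p = 1.91e-07). The noncoding Gm15441 overlaps Txnip on the opposite strand and fell by 1.21 ± 0.18 (adjusted p = 1.2e-06). The library kit keeps strand, but nothing used here states whether the counting did, so reads of the 2 genes cannot be told apart. Aldoc, an aldolase, had 5.79 and 5.36 RPKM against 15.3 and 13.2 RPKM in control_C (-1.21 ± 0.16, adjusted p = 2.25e-08). Ndufa4l2, a HIF-induced mitochondrial protein, had 6.27 and 5.96 RPKM against 16.1 and 14.7 RPKM (-1.20 ± 0.14, adjusted p = 8.8e-10). Bhlhe40, a repressor of the clock and hypoxia circuits, had 12.6 and 12.2 RPKM against 28.9 and 28.6 RPKM (-1.15 ± 0.16, adjusted p = 1.96e-07). Ndrg2, a relative of Ndrg1, had 4.94 and 4.89 RPKM against 14.1 and 11.2 RPKM (-1.20 ± 0.22, adjusted p = 2.61e-05). Within the 6 libraries of the set, the Med14-low pair lay below the other 4 in each of these genes, as their choice required against control_C. Nupr1, a stress-induced chromatin protein, had 7.81 and 8.88 RPKM against 18.6 and 20.2 RPKM (-1.13 ± 0.43, adjusted p = 0.0467), a call lost without each of the 4 libraries in turn (adjusted p up to 0.179). In control_B, Aldoc had 1.06 and 1.11 RPKM, Ndufa4l2 0.216 and 0.313 RPKM and Bhlhe40 4.92 and 5.11 RPKM, so all 3 were higher in the Med14-low libraries than there. Txnip had 128 and 130 RPKM in control_B, above both Med14-low libraries (adjusted p = 0.0568).

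Cholesterol synthesis genes fell with them. SREBP2, the sterol-sensing transcription factor, controls most of this pathway. Of 20 tested members 13 fell and 1 rose, with a median log2 change of -0.45, beside 7.49% of all genes called lower and 16% higher. The number that fell was 8 without control_C replicate 1, 9 without shMed1 replicate 2, 10 without shMed14 replicate 1 and 11 without control_C replicate 2. Insig1, which holds the SREBP complex in the endoplasmic reticulum and is itself its target, had 25.3 and 20.9 RPKM in the Med14-low libraries, 53.1 and 46.2 RPKM in the Med1-low libraries and 57.3 and 43.3 RPKM in control_C (log2 change -1.08 ± 0.18, adjusted p = 7.7e-06). Mvd, the mevalonate diphosphate decarboxylase, had 12.8 and 10.5 RPKM against 25.1 and 20.6 RPKM (-0.91 ± 0.14, adjusted p = 2.37e-06). Cyp51, the lanosterol demethylase, had 13.6 and 12.8 RPKM against 24.7 and 22.0 RPKM (-0.78 ± 0.11, adjusted p = 1.66e-07). In these genes both Med14-low libraries lay below both controls, which for Insig1 was a condition of its choice. Ebp was the member that rose (0.37 ± 0.11, adjusted p = 0.0125), and Srebf2, which encodes SREBP2, was not called. Hmgcs1 is listed at 0 in all 6 libraries and was not tested. In control_C 19 of the 20 were above control_B, and against control_B 14 of them were called higher and 1 lower, with Insig1 at 9.37 and 9.60 RPKM in control_B.

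**Figure D4:**
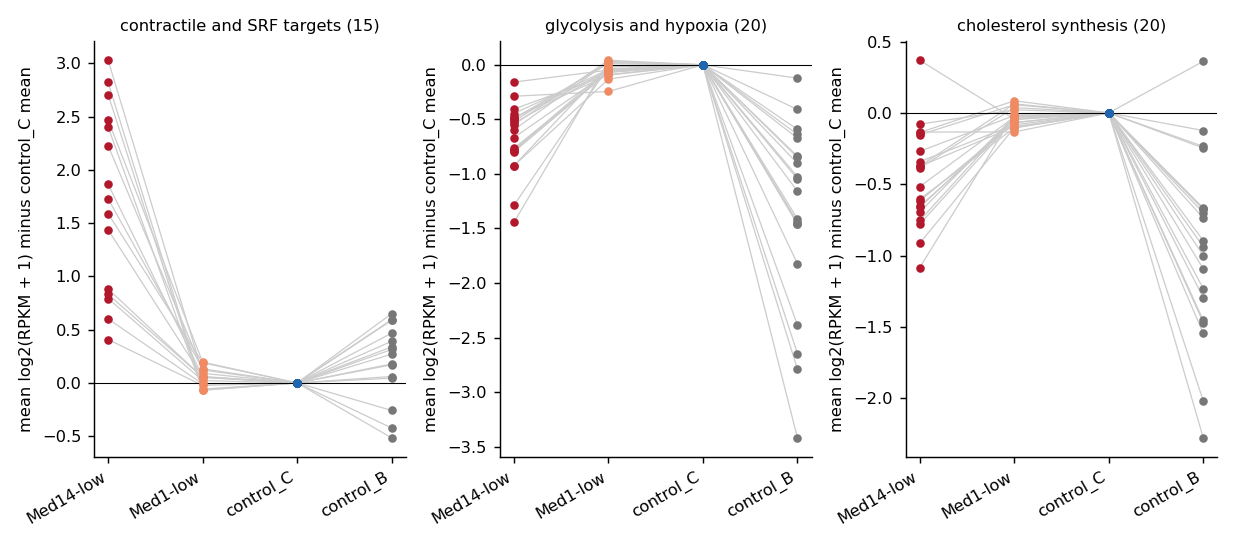
Mean log2(RPKM + 1) of each tested member of 3 gene lists in the Med14-low, Med1-low, control_C and control_B libraries (n = 2 each), minus its control_C mean, with lines joining the values of a gene. All 15 contractile genes are highest in the Med14-low libraries among the groups shown, Srf by little over control_B. Glycolysis, hypoxia and cholesterol genes lie below control_C in Med14-low and lower still in control_B for most members.

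Stress, growth and cell cycle lists moved less. Their counts in the main fit stand beside 16% of all genes called higher and 7.49% lower. In the integrated stress response, which is run by ATF4, 5 of 18 fell and 2 rose, with Ddit4, an inhibitor of the growth kinase mTORC1, at 73.3 and 59.5 RPKM in the Med14-low libraries and 122 and 94.01 RPKM in control_C (log2 change -0.69 ± 0.18, adjusted p = 0.00396). Without shMed1 replicate 2 none of that list fell, without control_C replicate 1 it was 1, without either of the other 2 libraries 3, and with the 6 libraries alone 10. Sesn2, a stress sensor of both the ATF4 and p53 responses, rose by 0.82 ± 0.09 (adjusted p = 7.01e-10). Of 10 immediate early genes 4 rose and 1 fell. Fosl1, a partner of JUN, had 2.97 and 3.69 RPKM against 0.638 and 0.724 RPKM in control_C (1.36 ± 0.22, adjusted p = 4.93e-06), and Ier3, a stress-induced survival gene, had a log2 change of -0.84 ± 0.22 (adjusted p = 0.00272; 0.0510 without shMed1 replicate 2). The number of these genes that rose was 1 without shMed14 replicate 1 or without control_C replicate 2, and 2 without control_C replicate 1. Fos and Egr1, the usual first responders, were not called. Of 14 G2/M genes 4 fell, led by the spindle checkpoint kinase Bub1 (-0.56 ± 0.12, adjusted p = 0.000256), and 8 fell with the 6 libraries alone. Only 1 of the 14 fell without shMed14 replicate 1 or without control_C replicate 2, and 2 without either of the others.

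Of 19 imprinted genes 5 rose and 1 fell, among them Ndn, a growth suppressor, at 7.80 and 7.99 RPKM in the Med14-low libraries and 3.91 and 3.23 RPKM in control_C (0.97 ± 0.23, adjusted p = 0.00104), while Grb10, an adaptor that damps insulin signalling, had a log2 change of -0.61 ± 0.18 (adjusted p = 0.0099). Without shMed1 replicate 2 the imprinted count was 2 higher and none lower, and without either control it was 3 higher. Of 12 genes of the FGF and ERK feedback list, Phlda1 and Dusp6 rose and Fgf4 fell. Nes, a filament of neural progenitors, rose among the 4 tested neuroectoderm genes (1.22 ± 0.17, adjusted p = 1.44e-07), while Tubb3, a neuronal tubulin, fell and Sox1 and Pax6 were not called. Tubb3 had 10.3 and 8.48 RPKM in the Med14-low libraries and 14.2 and 14.1 RPKM in control_C (-0.55 ± 0.17, adjusted p = 0.0151), a call lost without shMed1 replicate 2 and without either control (adjusted p up to 0.193). No member was called among 16 ribosome biogenesis genes, 20 ribosomal proteins, 5 two-cell-like genes and 6 interferon response genes. With the 6 libraries alone, 3 of the ribosome biogenesis and 2 of the interferon genes were called. With the replicate block added to that fit, 10 ribosome biogenesis genes were lower and 2 higher, 11 ribosomal proteins were lower and 1 higher, and 3 interferon genes were higher and 1 lower. Against control_B all 5 two-cell-like genes and 10 ribosome biogenesis genes were lower, 2 ribosomal proteins and 2 interferon genes were higher, and of the imprinted genes 2 were higher and 8 lower. Of 14 primitive endoderm genes only Cubn, an endocytic receptor, fell, and none did with any of the 4 libraries left out. The counts of the main fit are to be read beside the 23.5% of all genes that were called in it. With the 6 libraries alone 3678 of 12955 genes were called. With the replicate block added to that fit it was 6182 of 12955, 3608 higher and 2574 lower. Against control_B it was 4965 of 12973, 2793 higher and 2172 lower.

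Set against the Med1-low pair, the Med14-low libraries showed the same groups of genes without use of the controls. Of 12972 genes tested, 2829 were called (21.8%), 1920 higher (14.8%) and 909 lower (7.01%). The count was 1675 without shMed1 replicate 2, 1725 without shMed14 replicate 2, 1807 without shMed1 replicate 1 and 1904 without shMed14 replicate 1. In this comparison 14 of 15 contractile genes, 17 of 21 p53 targets and 7 of 11 trophectoderm genes were higher, and 1 p53 target and 1 trophectoderm gene were lower. Of 20 glycolysis and hypoxia genes 17 were lower, as were 11 of 20 cholesterol genes, of which 1 was higher. Actc1 differed by a log2 value of 2.88 (adjusted p = 1.36e-08), Wnt3 by 2.54 (adjusted p = 1.47e-12) and Perp by 2.52 (adjusted p = 1.6e-14), and at the other end Ndrg1 by -1.48 (adjusted p = 6.99e-09). The Med1-low libraries against control_C gave 0 calls of 12973 (0.00%), with 99 genes at an unadjusted p under 0.05 in limma, the tool that was run.

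Of the 25 knockdowns that share control_B, the one whose changes were most like those of the Med14-low libraries was shMed4, which targets a middle-module subunit. The Pearson correlation of log2 changes was 0.69 over 12972 genes, with no library in common. It was 0.61 for shMed30, 0.60 for shMed10 and 0.59 for shMed12. These are correlations across genes, which are not independent replicates, and the 2 changes of a gene come from different libraries. Each Med14-low library alone gave 0.66 (shMed14 replicate 1) and 0.68 (shMed1 replicate 2) with shMed4.

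The list counts were alike for some groups and unlike for others. In shMed4 against control_B, where 35.3% of all genes were called (18.4% higher and 16.9% lower), 14 of 15 contractile genes rose (median log2 change 2.18), 12 of 21 p53 targets rose, and 9 of 12 general and 10 of 14 naive pluripotency genes fell. Acta2 rose in 10 of the 23 Mediator knockdowns of control_B and Tagln in 12, and neither fell in any. Taken as the difference between the 2 changes, 575 genes of 12972 differed (4.43%), 346 higher (2.67%) and 229 lower (1.77%) in the Med14-low libraries. No contractile gene was among them, with Acta2 at -0.57 ± 0.71 (adjusted p = 0.739) and Actc1 at -0.16 ± 0.51 (adjusted p = 0.916), and SEs of this size leave smaller differences undetected. Perp rose more in the Med14-low libraries than in shMed4, by 1.40 (adjusted p = 0.00118), as did Fas by 1.07. Starting levels of Perp differed, with 39.2 and 41.3 RPKM in control_B and 15.0 and 13.5 RPKM in control_C. Against control_B the Perp change was 0.85 in the Med14-low libraries, beside 0.88 in shMed4. The Fas change in the Med14-low libraries was 1.97 against control_B and 2.00 against control_C. No general pluripotency gene differed, and of the naive genes Nr0b1, a nuclear receptor, and Gbx2, a homeobox factor, were lower in shMed4 with differences of 1.76 (adjusted p = 0.0309) and 1.82 (adjusted p = 0.00302).

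Metabolic genes also differed. Bhlhe40 had a log2 change of -1.15 in the Med14-low libraries and 1.38 in shMed4, a difference of -2.53 (adjusted p = 1.59e-11). Ndrg1 had -1.44 in the Med14-low libraries and 0.24 in shMed4, a difference of -1.68 (adjusted p = 2.05e-05). In all 7 glycolysis and hypoxia genes and 9 cholesterol genes were lower by this test, and none of either list was higher. Against the mean change of the 23 Mediator knockdowns 960 genes differed (7.40%), 692 higher (5.33%) and 268 lower (2.07%). Among them were 11 glycolysis and hypoxia genes and 10 cholesterol genes that were lower, and 9 p53 targets and 4 contractile genes that were higher. The different starting levels of the 2 control groups move with these differences, and their part in them was not tested.

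**Figure D5:**
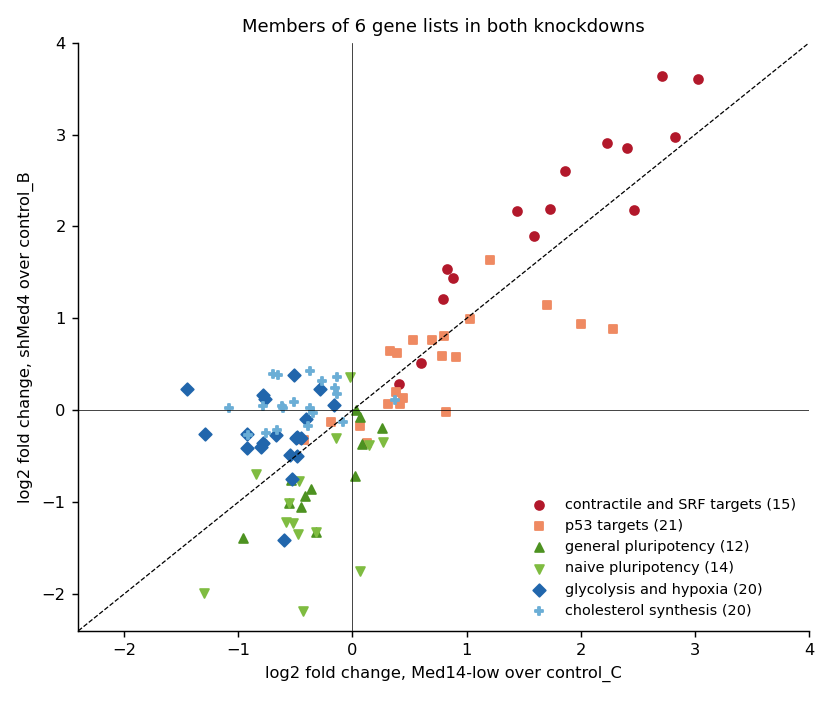
Log2 fold change of the Med14-low libraries over control_C (horizontal) and of the shMed4 libraries over control_B (vertical) for the tested members of 6 gene lists, with 1 point per gene and a dashed line where both are equal. Contractile genes lie near the line at the upper right, and most pluripotency genes lie below it, while cholesterol genes spread to the left at vertical values near 0.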

How the data were processed

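Levels came from 100 tables, 1 per library, of RPKM values per transcript that the authors deposited. Per the submitters' processing notes, reads were handled with TopHat2 and build mm9. Not given in the sources used here are the aligner version, the counting tool and its strand setting. Libraries were made with a stranded mRNA kit, per the labels' protocols.

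Of 34995 lines per table, 140 repeats were counted once. Names came from RefSeq (33481 lines) and GENCODE (188), and 1186 lines stayed unnamed. Each of 24206 genes took its transcript with the highest mean over all libraries. Depth was recovered from the values of short single transcripts, whose products of RPKM and length fall on whole multiples of 1 read (within 0.05 reads for at least 97.1% of such values in each library). RPKM values are shares of a library and cannot show a change common to all genes.

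Values were log2(RPKM + 1) for the 12974 genes that passed the filter (2 or more libraries at 1 RPKM or higher); the pseudocount of 1 makes changes of low genes smaller. All libraries entered 1 limma-trend fit (limma 3.58.1, R 4.3.3) with 1 coefficient per group and 50 residual degrees of freedom, and p-values were two-sided and adjusted by Benjamini and Hochberg within a comparison at 0.05. Med14 was not tested. The libraries, the 37 gene lists and the tests were chosen with earlier results of these data known, and p-values are conditional on the choice of libraries by Med14. The genes named were the 12 with the largest rise and the 12 with the largest fall among called genes that reached 5 RPKM in a group mean and did not overlap, all Mediator subunits, up to 4 called members of each list with the largest change (up to 2 with the smallest p where none was called), and the 6 with the largest difference from the Med1-low libraries in each direction; further list members were named after their values were seen. The scripts were tested on simulated data.

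Replicate numbers in the titles paired the samples: the difference of replicate 1 minus 2 correlated between the 3 groups of the set at 0.352 to 0.373. Alternatives were the pseudocount, the filter, the scaling, the libraries in the fit, the transcript, a replicate block, a minimum change, the titled groups, control_B as control, and leaving out each library. The comparisons with shMed4 and with the mean of 23 Mediator knockdowns, and the second Med14 transcript, were added after seeing the data.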

Additional observations from a re-analysis of the deposited data

How the results depend on the processing

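Grouping the libraries as titled gave 0 called genes in both comparisons, and 1184 and 48 genes at an unadjusted p under 0.05 against control_C and against the other pair. Against control_C, 1717 genes were called at a mean of 5 RPKM or more (fewer genes were tested), 6418 with the libraries of control sets B and C, 6182 with the 6 libraries and the replicate block, and 1709 to 2068 with a library left out. Against the Med1-low libraries these counts were 1589, 6353, 6027 and 1675 to 1904. With the replicate block in the fit of all libraries 3551 were called, 3048 of them among the 3052. Requiring a log2 change of 1 left 252 and 246. The correlation with the shMed4 change was 0.713 at a mean of 5 RPKM or more. The block changed no call among the 93 genes compared singly, and the remaining settings kept the counts within 1.5 times. No setting apart from control_B gave any of the 93 another direction.

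With control_B in place of control_C 4965 genes were called, and 1078 of the 3052 had the opposite sign. Log2 changes turned positive there for Ndrg1 0.94, Pfkp 0.62, Egln3 2.13, Aldoc 1.66, Ndufa4l2 2.49, Ndrg2 1.27, Bhlhe40 1.16, Insig1 1.19, Cdk19 0.36, Prdm14 0.93, Cubn 0.20, Ier3 1.49, Cyp51 0.77, Dhcr7 0.48, Bnip3 1.86, Bub1 0.50, Top2a 0.38, Cenpf 0.22 and Nanog 0.75, and negative for Med4 -0.15, Med7 -0.020, Polr2a -0.099, Polr2l -0.064, Cdh2 -0.29, Taf7l -0.65, Fbn1 -0.13, Hspg2 -0.24, Atf3 -0.19, Sesn2 -0.77, Jun -0.36, Phlda1 -0.093, Dusp6 -0.72, Id3 -0.52 and Stat3 -0.11; the cause was not tested. Of 89 called genes named by the rule, 55 kept their call in all settings except the titled groups, control_B and the minimum change. With 2 libraries a group, small changes of low genes are the least certain.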
